A study of Saccharomyces cerevisiae with 18 samples.

Results

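The genes described here encode the proteins of the yeast mitochondrial ribosome. They were chosen by name: every gene that stood alone on a probe set and whose symbol begins with MRPL, MRPS, MRP or RSM followed by a digit. The rule found 67 genes on 68 probe sets, out of 5656 genes that were named alone on a probe set of the array. Of the 67, 38 encode large-subunit and 27 small-subunit proteins. The remaining 2 were caught by their symbols: MRP8, a gene of unknown function, and RSM22, which encodes a methyltransferase-like mitochondrial protein.

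Mitochondrial ribosomes translate the few messenger RNAs made from mitochondrial DNA, which encode core subunits of the respiratory chain and of the ATP synthase. Nearly all of their proteins are encoded in the nucleus, made in the cytosol and imported. In budding yeast many of the transcripts are bound by the RNA-binding protein Puf3, and respiratory genes as a class are lower during growth on glucose and higher during growth on carbon sources that must be respired. Some of the proteins have counterparts in bacterial ribosomes and others exist only in mitochondria.

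The study measured budding yeast (Saccharomyces cerevisiae) RNA on 18 arrays of 1 colour, each with 1 sample, and compared 8 genotypes. There were 3 arrays of wild type (n = 3), 2 of a deletion of RPD3, the gene of a histone deacetylase (n = 2), and arrays of 4 histone mutants. The histone mutants were a deletion of residues 1 to 28 of histone H3 (the H3 tail deletion, n = 2), H3 with lysines 4, 9, 14, 18, 23 and 27 replaced by glutamine (the H3 lysine substitution, n = 3), a deletion of residues 2 to 26 of histone H4 (the H4 tail deletion, n = 2) and H4 with lysines 5, 8, 12 and 16 replaced by glutamine (the H4 lysine substitution, n = 2). In the remaining strains RPD3 was deleted together with a histone change: with the H3 tail deletion in the H3 double mutant (n = 2) and with the H4 lysine substitution in the H4 double mutant (n = 2). Each group was 1 named strain. The sources used here give neither growth conditions nor whether cultures were separate, so the spread behind each p-value is that between arrays and may be technical. Sampling days in the labels fall into an earlier period and a later one, and the later one holds both lysine substitutions, the H4 double mutant and 1 wild-type array.

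Signal of RPD3 itself ran from 689.7 to 1001.4 in wild type and from 9.4 to 80.7 on the 6 arrays of strains lacking it, all under the floor of 140.2 below which signals were not read. The mitochondrially encoded OLI1, a subunit of the ATP synthase, read 12786.8 to 25770.9 on 16 arrays and 2.7 on both arrays of the H4 tail deletion. These are signals of its brightest probe set. Another one read 2 to 31.4, under the floor on every array including wild type, and was not tested. For the second arrays of both tail deletions and of the H3 double mutant, the strain named in the run settings was not that of the labels. The third wild-type array was the only wild-type array of the later sampling period. It held the lowest signal of the 3 wild-type arrays for 44 of the 67 genes, against 47.1% of all tested probe sets. Signals are in arbitrary units after each array was brought to a common trimmed mean, so a change shared by most transcripts is not visible, and fewer cells and less RNA per cell cannot be told apart.

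All 67 genes passed the filter for testing, and 63 were above the floor on every array. Over the genes, wild type had median signals of 1097, 1024 and 804. Deleting RPD3 gave medians of 1173 and 1286, and the H3 tail deletion 1272 and 1180. In the H3 lysine substitution it was 1144, 1062 and 1055. The H4 tail deletion gave 1515, the highest of all arrays, and 1233, and the H4 lysine substitution had 1144 and 1221. The H3 double mutant lay lower than every array of the single mutants, at 998 and 870. The H4 double mutant had 1077 and 946, the first of these above 1062 and 1055 in the H3 lysine substitution. The arrays of the RPD3 deletion, of both tail deletions and of the H4 lysine substitution all lay above every wild-type array, while those of the other 3 mutants overlapped with wild type. The standard deviation of this median between arrays of a group, pooled over groups, was 0.15 on the log2 scale. The third wild-type array was the lowest of all 18.

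**Figure D1:**
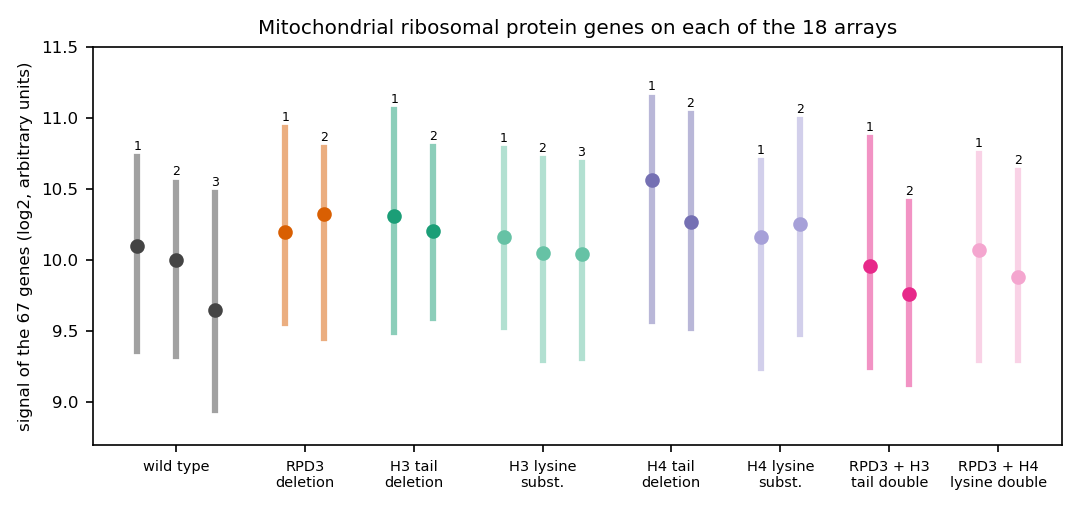
Signal of the 67 mitochondrial ribosomal protein genes on each array (y axis, log2 of arbitrary units). Points are medians, bars run from the lower to the upper quartile, and numbers are the replicate numbers of the labels; the H4 tail deletion holds the highest median (1515) and the third wild-type array the lowest (804).

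Differences were tested with limma over all 7851 tested probe sets, and a gene is said to have risen or fallen where its Benjamini-Hochberg adjusted p was under 0.05. Against wild type, 28 of the 67 genes rose in at least 1 of the 7 mutants and 7 fell in at least 1, among them 2 (MRPL25 and MRPL31) that did both. No call was made for 34 genes in any of the 7 comparisons. The 5 single mutants gave rises and no falls, whereas both double mutants gave both. Of all tested probe sets 8.69% to 15.4% rose and 2.98% to 16.5% fell, depending on the mutant. In the H3 tail deletion 8.96% of the genes rose against 10.7% of all tested probe sets. In the H3 lysine substitution it was 11.9% against 11.8%, so both shares are near those of all. The share of all tested probe sets called in at least 1 mutant is not given here. The 7 comparisons share the wild-type arrays.

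**Figure D2:**
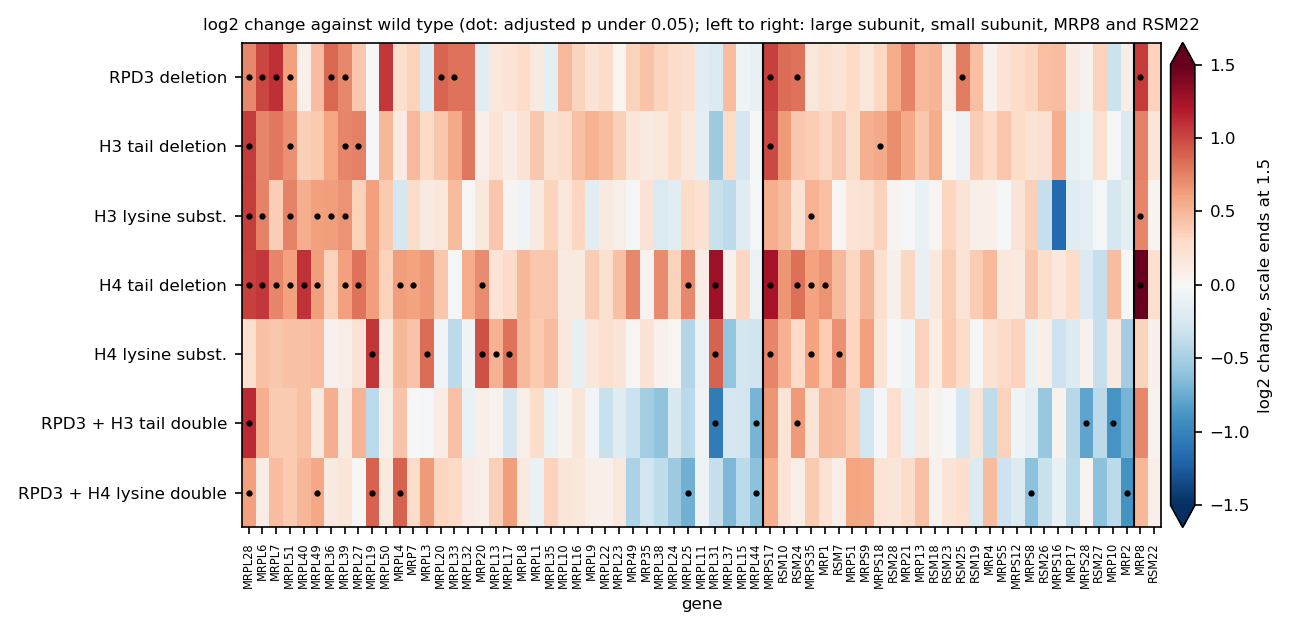
Change of each gene against wild type in the 7 mutants (colour, log2; x axis, genes; y axis, mutants), with a dot where the adjusted p was under 0.05. Dots stand only on rises in the upper 5 rows, with 18 in the H4 tail deletion, and on both rises and falls in the lower 2 rows; the dark blue cell of MRPS16 in the H3 lysine substitution carries no dot and comes from 1 array.

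MRPL28, a large-subunit protein specific to mitochondria, rose in 6 of the 7 mutants, more often than any other of the genes. In wild type it read 516.6, 367.4 and 405.0. With RPD3 deleted it read 741.5 and 666.0, and without the H3 tail 939.1 and 830.5. The H3 lysine substitution gave 977.4, 782.3 and 870.5, and the H4 tail deletion 869.2 and 870.9. All of these arrays were above the highest wild-type array. The H4 lysine substitution gave 438.6 and 577.6, which overlapped with wild type, and the H4 double mutant 755.9 and 562.4, which did not. In the H3 double mutant it read 979.7 and 869.7. The log2 change was 1.04 ± 0.19 (SE, limma, adjusted p = 0.00177) in the H3 lysine substitution, 1.12 ± 0.21 (adjusted p = 0.00195) in the H3 double mutant and 0.62 ± 0.21 (adjusted p = 0.0486) in the H4 double mutant.

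MRPL51, MRPS17 and MRPL39 each rose in 4 mutants. MRPL51, a large-subunit protein, read 1809.9, 1896.0 and 1424.9 in wild type and 2863.3, 2832.6 and 2798.5 in the H3 lysine substitution, a log2 change of 0.74 ± 0.16 (limma, adjusted p = 0.0041). MRPS17, the small-subunit counterpart of bacterial protein S17, read 668.1, 669.5 and 505.3 in wild type, and every array of every mutant was higher, from 772.5 to 1854.2. Its rises were called in the RPD3 deletion (log2 1.02 ± 0.25), the H3 tail deletion (0.99 ± 0.25), the H4 tail deletion (1.24 ± 0.25) and the H4 lysine substitution (0.73, adjusted p = 0.0456). MRPL39, the counterpart of bacterial L33, rose by 0.72 in the RPD3 deletion, 0.73 in the H3 tail deletion, 0.67 in the H3 lysine substitution and 0.61 in the H4 tail deletion on the log2 scale. In the last of these its arrays (6330.8 and 4878.7) overlapped with the first wild-type array (4886.6). Over the alternatives tried, the log2 change of MRPL39 in the H3 tail deletion ran from 0.24 to 0.94, and its call was not always kept. MRP8, MRPL49, MRPL6, MRPS35 and RSM24 rose in 3 mutants each.

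The deletion of RPD3 raised 12 of the 67 genes and lowered none, where 11.2% of all tested probe sets rose and 4.13% fell. The median log2 change over the genes was 0.32, against 0.01 over all tested probe sets, and 58 of 67 lay above 0, against 54.1% of all. The largest rise was in MRPL7, the counterpart of bacterial L5, which read 909.1, 880.0 and 620.7 in wild type and 1626.3 and 1743.8 in the deletion (log2 1.09 ± 0.26, limma, adjusted p = 0.011). MRPL6 (log2 1.00 ± 0.27, adjusted p = 0.0243) and MRPL20 (0.87 ± 0.22, adjusted p = 0.0159), both of the large subunit, also rose. Of the small subunit MRPS17, RSM24 and RSM25 rose, and RSM25 read 299.6 and 298.3 against 184.8, 178.3 and 165.2 in wild type. The ratio of 3′ to 5′ actin probe signal was 1.68 and 1.66 on the arrays of the RPD3 deletion and 1.37 to 1.41 in wild type. With that ratio as a covariate 2 genes rose, and its part in the result was not tested further. Without the third wild-type array 7 genes rose with a median of 0.21, and without the second array of the deletion 2 rose. On the only day that held both genotypes, the second array of the deletion against the first of wild type gave a median of 0.12 with 41 genes above 0. With sampling day as a block the median was 0.11 and no call remained.

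The H3 tail deletion raised 6 genes and lowered none, where 10.7% of all tested probe sets rose and 2.98% fell. Of the genes, 57 lay above 0, against 52.7% of all tested probe sets. The median over the genes was 0.36, against 0 over all. Beside MRPL28 (log2 1.05 ± 0.21, limma, adjusted p = 0.00499), MRPS17, MRPL39 and MRPL51, the rises were in MRPL27 of the large subunit and MRPS18, the small-subunit counterpart of bacterial S11. MRPL27 read 2289 ± 350 (SD, n = 2) against 1356 ± 57.5 (n = 3) in wild type. The actin ratio was 1.85 and 1.44 here, and with it as a covariate 1 gene rose. Leaving out the first or the second array of the deletion left 1 and 2 rises. Within the shared day the median was 0.14, with 42 genes above 0, and with day as a block it was 0.13 with no call. The mutant array of that day is the one whose header names another strain. The median was 0.21 after median centring, with 2 rises, and 0.23 without the third wild-type array, with 4.

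In the H3 lysine substitution 8 genes rose and none fell, where 11.8% of all tested probe sets rose and 13.7% fell. The median was 0.17, with 47 genes above 0, while the median over all tested probe sets was -0.08, with 43.5% above 0. MRPL28 and MRPL51 kept their calls under every alternative tried. MRPL6, MRP8, MRPL39, MRPL36, MRPL49 and MRPS35 made up the rest. MRPS35, a small-subunit protein, read 1255.4, 1072.6 and 1258.4, all above the wild-type readings of 790.0, 794.6 and 906.6. MRPS16, the counterpart of bacterial S16, read 134.2 on the first array of this group and 1864.7 and 1774.4 on the others, and was not called. Leaving out 1 array of the group gave 3 to 5 calls. Without the second wild-type array there were 5, and without the third 4 rises and 1 fall, with a median of 0.07. No day held both this group and wild type. With sampling period as a block, which sets this group against the third wild-type array, the median was 0.39 with 6 rises.

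The H4 tail deletion had the most calls, with 18 rises and no fall, where 12.3% of all tested probe sets rose and 15.1% fell. The median was 0.40 against -0.05 over all tested probe sets, and 62 of 67 genes lay above 0, against 45.8% of all. Of 38 large-subunit genes 13 rose, with a median of 0.47, and of 27 small-subunit genes 4 rose, with a median of 0.31; this difference was not tested. The largest change was not in a ribosomal protein: MRP8 read 5780.2 and 7881.0 against 2749.0, 1678.2 and 1729.5 in wild type (log2 1.76 ± 0.27, limma, adjusted p = 0.000408). MRPL31, a mitochondria-specific large-subunit protein, read 1603.7 and 1850.7 against 1015.5, 694.2 and 522.4 (log2 1.27 ± 0.28, adjusted p = 0.00447). MRPL40, the counterpart of bacterial L24, read 1646.9 and 1833.0 against 820.2, 742.1 and 912.9 (log2 1.08 ± 0.23, adjusted p = 0.00412). All of these arrays lay above wild type.

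Leaving out the first or second array of the H4 tail deletion gave 7 and 9 calls, the second being the array whose header names another strain. The 2 arrays came from days with no wild-type array. With day as a block the median was 0.20 and no gene was called. OLI1, at 2.7 on both arrays, and COX1, a mitochondrially encoded subunit of cytochrome oxidase, at 923.5 and 755.2 against 3503.3 to 6099.1 in wild type, were low in this group. COX1 was also low in the RPD3 deletion, at 1440.1 and 690.1 (log2 -2.23, limma, adjusted p = 0.0275), and on the first array of the H3 double mutant, at 748.2. These are signals of its brightest probe set. On another tested one the RPD3 deletion read 169.3 and 133.1 against 152.3, 422.4 and 133.3 in wild type. On the remaining one it read 203.9 and 264.4 against 148, 396.9 and 253.2. On both it overlapped with wild type, as did the first H3 double array, at 145.7 and 274.7. The H4 tail deletion was low on both, at 45.8 and 32.5, and at 27.8 and 26.2. COX3, another mitochondrially encoded subunit, read 343.9 and 618.3 in the H4 tail deletion against 233.4, 519.2 and 139.7 in wild type and was not called. ATP6 read 3.6 and 4.6 there against 123, 495 and 322.9 in wild type. COB read 8.8 and 4 against 134.1, 669.2 and 109.2, so both were partly under the floor in wild type too. Of 5 tested mitochondrially encoded genes 3 fell in the H4 tail deletion, where 15.1% of all tested probe sets fell. The part of these genes in the result was not tested.

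The H4 lysine substitution raised 9 genes and lowered none, where 8.69% of all tested probe sets rose and 16.5% fell. The median was 0.22, with 50 genes above 0, against -0.07 over all tested probe sets, with 44.5% above 0. MRPL28, at 438.6 and 577.6, was not called here. MRPL19, the counterpart of bacterial L11, led with 1993.6 and 2327.3 against 962.3, 1127.7 and 991.9 in wild type (log2 1.07 ± 0.24, limma, adjusted p = 0.0061). MRP20, the counterpart of bacterial L23, read 439.1 and 600.3 against 308.6, 271.4 and 224.2 (log2 0.95 ± 0.25, adjusted p = 0.0137). MRPL31, MRPL3, MRPL17, MRPL13, MRPS17, MRPS35 and RSM7 were the others. Without the first or the second array of the group 2 and 0 genes were called, and without the second wild-type array 3. Without the third wild-type array there were 6 rises and 2 falls, with a median of 0.12, and with sampling period as a block 4 rises, with a median of 0.47. Median centring gave 16 rises and quantile normalization 14. All arrays of this group came from 1 day with no wild-type array, so day and genotype cannot be told apart.

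**Figure D3:**
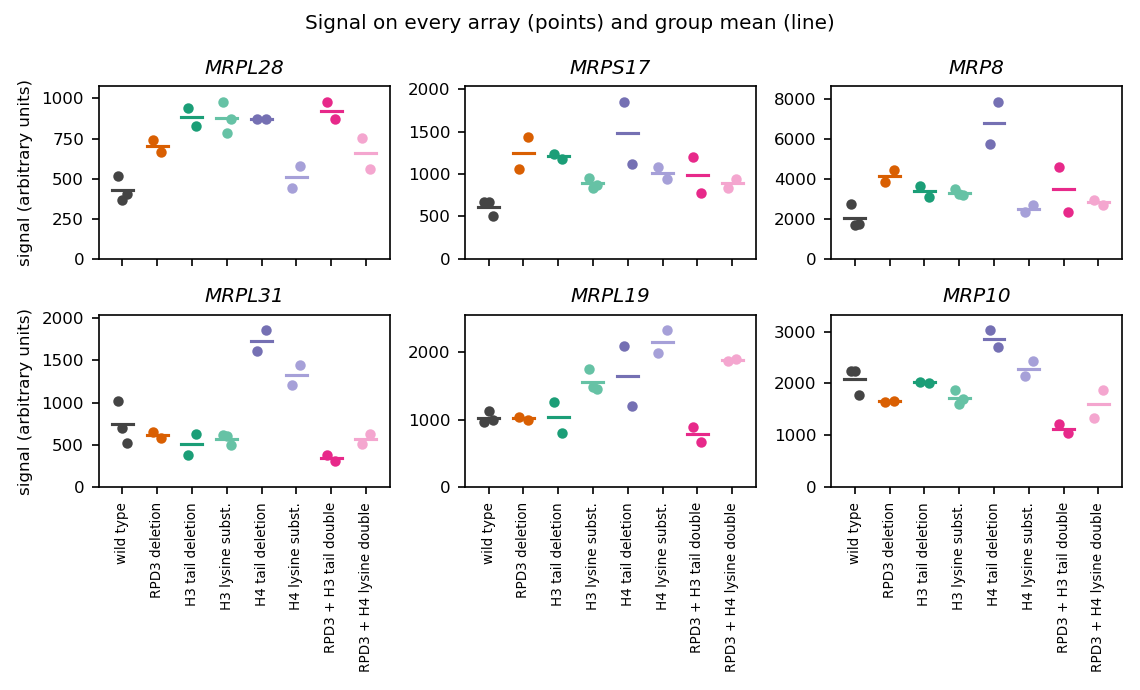
Signal of 6 genes on every array (y axes, arbitrary units from 0; points, arrays; lines, group means). MRPL28 and MRPS17 are above wild type in most mutants, MRP8 and MRPL31 are highest in the H4 tail deletion, MRPL19 is high in both H4 lysine groups, and MRP10 is lowest in the H3 double mutant (1212.4 and 1048.7).

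The H3 double mutant gave 2 rises and 4 falls, where 15.4% of all tested probe sets rose and 8.13% fell. The median was 0.05, against 0.03 over all tested probe sets, and it was -0.10 after quantile normalization and -0.16 after median centring. MRPL28 and RSM24 rose. MRP10, a small-subunit protein, fell: it read 1212.4 and 1048.7 against 2230.5, 2233.5 and 1779.2 in wild type (log2 -0.88 ± 0.17, limma, adjusted p = 0.00218), and kept that call under every alternative tried. MRPL31 read 381.4 and 313.0, under all wild-type arrays (log2 -1.05 ± 0.28, adjusted p = 0.0144). MRPS28, the counterpart of bacterial S15, read 447.6 and 458.3 against 812.2, 873.3 and 678.6. MRPL44 fell on both of its probe sets, by 0.70 and 0.95 on the log2 scale. Within the shared day the median was -0.30 with 19 genes above 0. The double-mutant array of that day is the one whose header names another strain. Without the third wild-type array the median was -0.12, with 2 rises and 7 falls, and without the first array of the double mutant -0.14. Without the 3 arrays whose headers name another strain it was 0.14, with 5 rises and 1 fall.

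The H4 double mutant gave 4 rises and 4 falls, where 11.6% of all tested probe sets rose and 12.9% fell. The median was 0.15, against -0.03 over all. Without the third wild-type array it was -0.02, with 3 rises and 8 falls. MRPL19 rose, at 1877.4 and 1899.1 (log2 0.88 ± 0.24, limma, adjusted p = 0.0183), as did MRPL4, the counterpart of bacterial L29 (0.89 ± 0.22, adjusted p = 0.00953), MRPL28 and MRPL49. MRP2, the counterpart of bacterial S14, read 1967.4 and 1493.5 against 4271.2, 2696.9 and 2864.6 and fell by 0.90 on the log2 scale (adjusted p = 0.0257). MRPL25, MRPL44 and MRPS8 also fell, MRPL44 on both of its probe sets, by 0.61 and 0.91 on the log2 scale. Leaving out the first or second array of this group gave 0 and 3 calls, and without the second wild-type array there were 4. With sampling period as a block the median was 0.35 and no gene was called.

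The effect of deleting RPD3 was then set against its effect in the histone mutants. In cells without the H3 tail, adding the deletion gave 1 call, a fall of MRP10 from 2035.5 and 2006.2 to 1212.4 and 1048.7 (log2 -0.84 ± 0.19, limma, adjusted p = 0.0428), where 0.267% of all tested probe sets fell and 1.07% rose. The median over the genes was -0.33, against 0 over all tested probe sets. Above 0 lay 9 of 67 genes, against 48.7% of all. Both groups had 1 array on each of the same 2 days, and the labels' numbers mark these days. The median was -0.16 within the first day, with 15 genes above 0, and -0.49 within the second, with 9 above 0. Both arrays of the second day are among those whose headers name another strain. Without these arrays the median is that of the first day, -0.16. With the replicate number as a block the median was -0.33 and 0 genes were called, and leaving out any 1 of the 4 arrays also gave 0 calls. In cells with the H4 lysine substitution the deletion lowered MRPL31 alone, from 1207.0 and 1446.4 to 512.4 and 624.1 (log2 -1.22 ± 0.30, adjusted p = 0.044), where 1.25% of all fell and 2.17% rose. The median there was -0.15, with 22 genes above 0, against 0.07 over all, with 56.3% above 0. All 4 arrays were from 1 day, and leaving out any of them gave 0 calls.

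Whether the effect of the deletion differed with and without the H3 tail was tested as an interaction. It was below 0 for 63 of the 67 genes, with a median of -0.71 against -0.03 over all tested probe sets. Of all tested probe sets 47.1% lay above 0. The call was made for 5 genes, all negative, where 3.92% of all tested probe sets were called negative and 1.26% positive. These were MRPL32 (-1.71 ± 0.40, limma, adjusted p = 0.0278), MRPL7 (-1.49 ± 0.38, adjusted p = 0.0388), MRPL39 (-1.31 ± 0.31, adjusted p = 0.0307), RSM25 (-0.94 ± 0.23, adjusted p = 0.0356) and MRPS18 (-0.89 ± 0.23, adjusted p = 0.0429). MRPL32, the counterpart of bacterial L32, whose maturation by a mitochondrial protease precedes ribosome assembly, read 1042.3, 933.8 and 610.5 in wild type. With RPD3 deleted it read 1085.3 and 2025.8, without the H3 tail 1418.1 and 1481.4, and with both changes 925.6 and 663.3. Each single mutant thus lay above wild type on both arrays, while the double mutant overlapped with it. MRPL39 read 5420.0 and 6669.4 with RPD3 deleted, 6326.6 and 5741.7 without the H3 tail and 4880.9 and 3309.1 with both changes.

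These 5 calls depended on single arrays. There were 0 without the first array of the H3 tail deletion, the second of the RPD3 deletion or the second of the double mutant, and 1 without the second of the H3 tail deletion or the third of wild type. There were 16 without the first array of the double mutant and 13 without the first of wild type. Without the arrays whose headers name another strain there were 0, with a median of -0.65. With day as a block there were 0, with a median of -0.47.

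For the H4 lysines the same interaction had a median of -0.47, against 0.02 over all tested probe sets. Above 0 lay 5 of 67 genes, against 51.2% of all. Both interactions subtract the same change of the RPD3 deletion against wild type, whose median was 0.32. They share those arrays and are not independent results. No gene was called by limma at an adjusted p under 0.05, where 3.16% of all tested probe sets were called. At an unadjusted p under 0.05 there were 16, all negative, and 17.5% of all tested probe sets passed that limit. The signs of the RPD3 effect were compared between the 3 backgrounds, which share no array. In 34 of 67 genes the change was above 0 in otherwise wild-type cells and below 0 in both histone mutants, a pattern of 903 of the 7851 tested probe sets. In 17 it was below 0 only without the H3 tail, as in 1318 of all.

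**Figure D4:**
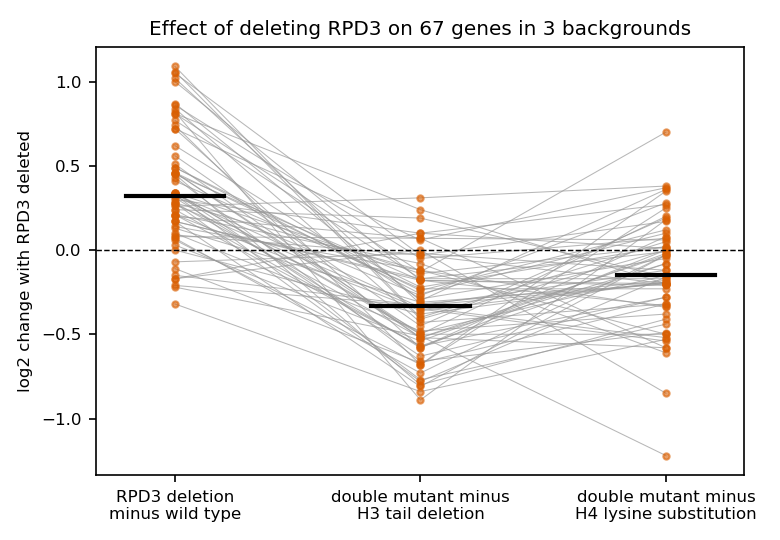
Change of each of the 67 genes with RPD3 deleted (y axis, log2) in wild type, in the H3 tail deletion and in the H4 lysine substitution. Points are genes, thin lines join a gene across backgrounds and black bars are medians, which lie at 0.32, -0.33 and -0.15.

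Tail deletion and lysine substitution of the same histone were also compared. For H3, no gene was called by limma, where 0.395% of all tested probe sets were, and 7 genes passed an unadjusted p under 0.05, as did 19.1% of all tested probe sets. The median was 0.14, the same as over all tested probe sets. It was -0.03 after quantile normalization, -0.07 after median centring and -0.16 with sampling period as a block, where 20 of 67 genes lay above 0. For H4, MRP8 (log2 1.43 ± 0.29, limma, adjusted p = 0.0125) and MRPL25 (1.16 ± 0.22, adjusted p = 0.00952) were higher in the tail deletion, where 3.63% of all tested probe sets were higher and 1.82% lower. MRPL25, a large-subunit protein, read 2008.5 and 2311.5 in the tail deletion, 969.7 and 959.7 in the lysine substitution and 1377.1, 1161.8 and 1397.2 in wild type. The tail-deleted arrays thus lay above wild type and the lysine-substituted ones below it. Leaving out the second array of the tail deletion or either array of the lysine substitution gave 0 calls, as did sampling period as a block, under which the median turned from 0.20 to -0.19.

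Signals are not compared between genes, since probe sets differ in brightness. RSM23 was at the floor on 4 arrays, with a median signal of 163.1, and MRPS5 and MRP35 were at it on 3 arrays each, so that falls of these genes could hardly be seen. MRPS12 and RSM19 were the only 2 of the genes that neighbour each other, and neither was called. RSM22 read 212.1 to 387.1 over all arrays and was not called in any comparison, whereas MRP8 was called in 4.

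Mitochondrial ribosomal proteins whose genes carry other names were examined as well. Of 15 such genes, 2 rose in the RPD3 deletion, 4 in the H3 tail deletion, 4 in the H3 lysine substitution, 7 in the H4 tail deletion and 3 in the H4 lysine substitution, with no fall in these 5 mutants. In the same order, 11.2%, 10.7%, 11.8%, 12.3% and 8.69% of all tested probe sets rose, so that the 2 rises in the RPD3 deletion are near the share of all. The H3 double mutant had 2 rises and 1 fall and the H4 double mutant 2 rises. Of all tested probe sets 15.4% and 11.6% rose there, so these rises are also near the share of all. YML6, the counterpart of bacterial L4, rose in all 7 mutants, from 0.63 in the H4 lysine substitution to 1.02 in the H3 tail deletion on the log2 scale. EHD3 rose in 6, with 1.30 in the H3 double mutant and 1.24 in the H4 double mutant. Medians ran from 0.08 in the H4 double mutant to 0.55 in the H4 tail deletion.

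Other parts of the mitochondrial translation machinery were described in the same way. Of 14 genes of mitochondrial aminoacyl-tRNA synthetases, which load transfer RNAs with amino acids, 3 to 5 rose and none fell in each mutant. Their medians ran from 0.26 to 0.59. Of all tested probe sets 8.69% to 15.4% rose and 2.98% to 16.5% fell, depending on the mutant. MSW1, the tryptophanyl-tRNA synthetase, rose in 6 mutants, by 1.35 on the log2 scale in the RPD3 deletion (limma, adjusted p = 0.0024). DIA4, a probable seryl-tRNA synthetase, also rose in 6. In the double mutants 5 of the 14 rose, with medians of 0.49 (H3) and 0.41 (H4), where the ribosomal protein genes had medians of 0.05 and 0.15. Of 22 translation factors and activators, 3 rose in each of the first 6 mutants and 1 in the H4 double mutant, where 2 fell. The counts of 3, or 13.6%, are near the shares of all tested probe sets that rose, which ran from 8.69% to 15.4% over the mutants. In the H4 double mutant 4.55% of the factors rose, under the 11.6% of all, and 9.09% fell, where 12.9% of all did. TUF1, the mitochondrial elongation factor Tu, rose in 4 mutants, most in the H4 lysine substitution (log2 1.41). MEF1, an elongation factor G, rose in 5, most in the H4 tail deletion (log2 1.52). PUF3 read 40.8 to 153.2, under the floor on most arrays, so its level was not read.

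Nuclear genes of the respiratory chain, whose products assemble with the proteins made by these ribosomes, fell in the H4 tail deletion. There 18 of 37 fell and none rose, with a median of -0.62, where 18 of the 67 rose with a median of 0.40. Of all tested probe sets 15.1% fell and 12.3% rose in this mutant. In the other single mutants, where 2.98% to 16.5% of all tested probe sets fell, none of the 37 did. In the RPD3 deletion 1 rose, a smaller share than the 11.2% of all tested probe sets, and 5 rose in the H3 tail deletion, 6 in the H3 lysine substitution and 10 in the H4 lysine substitution, where 10.7%, 11.8% and 8.69% of all rose. Of 30 genes of mitochondrial protein import, 6 rose and 3 fell in the H4 tail deletion, with a median of 0.08. These are 20% and 10%, where 12.3% of all tested probe sets rose and 15.1% fell. HAP4, the activator subunit of the complex that controls respiratory genes, read 2535.7 and 2897.2 in the H4 lysine substitution, where it rose (log2 1.37 ± 0.36, limma, adjusted p = 0.0128), against 1267.3, 590.1 and 1527.7 in wild type. In the H4 tail deletion it read 2122.7 and 1573.3 and was not called.

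Some genes for making the cytosolic ribosome fell in every mutant. Of 66 genes of cytosolic ribosome biogenesis, none rose in any mutant against wild type. Of these genes 64 fell in the H4 tail deletion (median -1.33), 61 in the H3 lysine substitution (-0.96) and 58 in the H4 lysine substitution (-1.25). Of all tested probe sets 15.1%, 13.7% and 16.5% fell in these mutants. In the H3 tail deletion 13 of the 66 fell (-0.54) and in the RPD3 deletion 12 (-0.40), where 2.98% and 4.13% of all tested probe sets fell. Of 81 genes of cytosolic ribosomal proteins, 0 rose and 16 fell in the H4 tail deletion, with a median of -0.23. Of all tested probe sets 15.1% fell there. In each of the other histone mutants with RPD3 intact 5 of the 81 genes fell, or 6.17%. Of all tested probe sets 2.98% fell in the H3 tail deletion, 13.7% in the H3 lysine substitution and 16.5% in the H4 lysine substitution. In both lysine substitutions the 81 genes thus fell less often than all tested probe sets. The median of the mitochondrial ribosomal protein genes lay above that of both cytosolic lists in every mutant but the H4 double mutant, where cytosolic ribosomal proteins had a median of 0.22; these differences between lists were not tested.

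**Figure D5:**
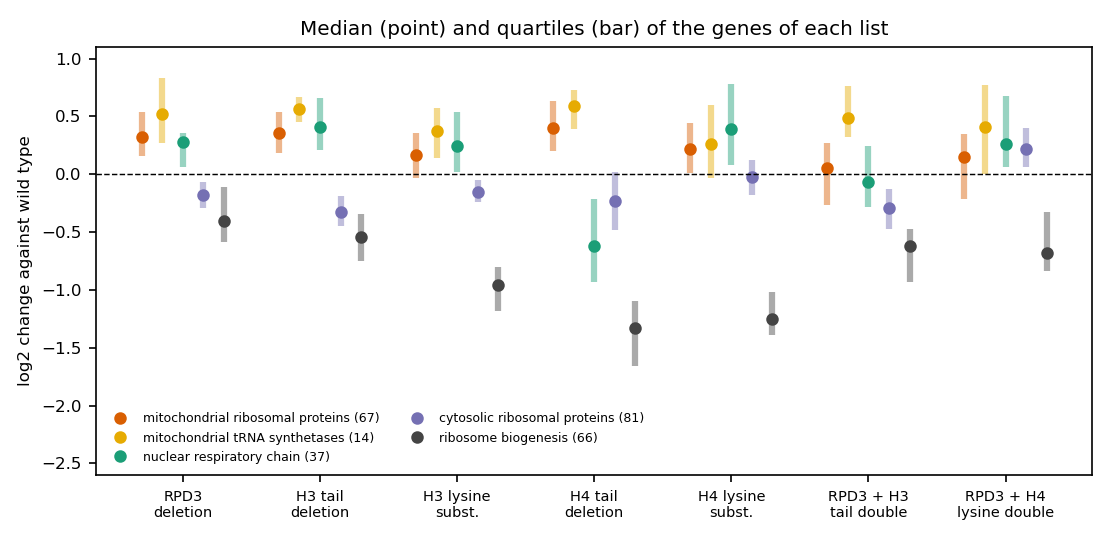
Change against wild type (y axis, log2) of 5 gene lists in the 7 mutants. Points are medians and bars run from the lower to the upper quartile of a list; the medians of the mitochondrial ribosomal protein genes and the synthetases lie above 0, those of ribosome biogenesis below 0, and the respiratory chain falls below 0 most in the H4 tail deletion (-0.62).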

How the data were processed

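RNA of 18 samples was measured on 1 array each. The deposited table holds 1 intensity per probe set and array on a linear scale, which the authors had scaled to a common 2% trimmed mean, as the values show. How probes were summarised is not stated in what was used here. Array run settings, of a unit other than a measurement, were read per the file headers for the strain name. Actin probe ratios came from the deposited intensity table. Symbols came from the platform annotation, matched to the R64 gene table for all 6504 probe sets that name 1 gene. Probe sets naming several genes (328) or none (2443) and 60 controls were not read as genes.

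Arrays were rescaled to the common trimmed mean (factors 0.9997 to 1.0003). The pooled 25th percentile, 140.2, served as a floor, and the test took the 7851 probe sets that exceeded it on 2 arrays or more, on log2 values. limma 3.58.1 in R 4.3.3 fitted 1 mean per group over all arrays (10 residual and 3.76 prior degrees of freedom, trended variance, two-sided). P-values were adjusted by Benjamini-Hochberg within each of 13 comparisons. The fit was tested on simulated data. A gene with several probe sets was read from the brightest, and both of MRPL44 are given where called. Means carry the SD over arrays and log2 changes limma's SE. The number of arrays limits the precision. Genes with full statistics are, per comparison, the 5 largest rises and falls among called genes with no overlap of arrays between groups, and the genes called most often. The members and lists were chosen with earlier results of these data known. Same-numbered arrays of the H3 tail deletion and of its double mutant share a sampling day per the labels, and their deviations from the group means correlated at 0.28. Alternatives were other normalizations, floors, filters and variance models, blocks for day, period and replicate number, the actin ratio as a covariate, and arrays left out.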

Additional observations from a re-analysis of the deposited data

Results flagged for a closer look

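The effect of deleting RPD3 differed by limma's interaction test between cells with and without the H3 tail for 5 genes. The log2 difference was -1.71 for MRPL32, -1.49 for MRPL7, -1.31 for MRPL39, -0.94 for RSM25 and -0.89 for MRPS18. All 5 are negative, and all kept a negative value under the 19 alternatives tried for each, with adjusted p from 0.0057 to 0.278 over them. Of all tested probe sets 3.92% were called negative in this test and 1.26% positive. With day as a block 0 of the 67 genes were called, and with the actin ratio as a covariate 0 as well. No group had enough arrays for a test of single outlying arrays.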

How the results depend on the processing

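Under settings other than leaving out 1 array, 91 counts of called genes stayed within 1.5 times of the reported count and 34 did not. Over all settings, 171 medians moved by less than the spread between arrays, 23 moved by more and 2 reversed. A median counts as reversed only if it moved by at least that spread (0.15) and its reported size exceeded it. Reported medians nearer 0 changed sign in further settings. That of the H3 double mutant against wild type went from 0.05 to -0.29 with day as a block. For single genes with full statistics, 498 of 721 values kept their call, 223 lost it and 0 reversed. Where a value moved, the cause was not tested. With quantile normalization the counts that moved were 14 for the H4 lysine substitution, 2 for the H4 double mutant against it and 3 for the interaction with the H3 tail. Median centring gave 2 for the H3 tail deletion, 16 for the H4 lysine substitution, 2 for the H4 double mutant against it and 3 for the interaction with the H3 tail. A lower floor, at the pooled 10th percentile, gave 0 for the H3 double mutant against the H3 tail deletion and 3 for that interaction. Without the filter on low signals there was 0 for the H4 double mutant against the H4 lysine substitution and 1 for the interaction with the H4 lysines, and without a variance trend 1 for the latter. Day as a block gave 0 for the RPD3 deletion, either tail deletion, the H3 double mutant against the H3 tail deletion and the interaction with the H3 tail, and 2 for the H4 double mutant against the H4 lysine substitution. With day as a block the H3 lysine substitution, the H4 lysine substitution and the H4 double mutant could not be fitted against wild type, nor a tail deletion against a substitution. Sampling period as a block gave 7 for the RPD3 deletion, 3 for the H3 tail deletion, 4 for the H4 lysine substitution, 0 for the H4 double mutant, 1 for the interaction with the H3 tail and 0 between the H4 mutants, where the median reversed to -0.19. The uncalled median between the H3 mutants turned to -0.16 under the same block. The actin ratio as a covariate gave 2 for the RPD3 deletion, 1 for the H3 tail deletion, 3 for the H3 double mutant, and 0 both for the latter against the H3 tail deletion and for the interaction with the H3 tail. Without the arrays whose headers name another strain there were 9 for the H4 tail deletion and 0 for either double mutant against its histone mutant and for the interaction with the H3 tail. With the replicate number as a block there were 0 calls for the H3 double mutant against the H3 tail deletion, and no other count moved. Against wild type the numbers share no day, and deviations of same-numbered arrays correlated at -0.30 to 0.22. Leaving out 1 array at a time gave 2 to 16 calls for the RPD3 deletion, 1 to 9 for the H3 tail deletion, 3 to 8 for the H3 lysine substitution, 7 to 20 for the H4 tail deletion, 0 to 8 for the H4 lysine substitution, 4 to 9 for the H3 double mutant and 0 to 11 for the H4 double mutant. It gave 0 to 16 for the interaction with the H3 tail, 0 to 2 between the H4 mutants and 0 for the other comparisons. The median of the H4 double mutant against wild type ran from -0.02 to 0.23 in these fits. The split of called probe sets between higher and lower moved with the scaling, most for the H3 double mutant, from 1211 higher and 638 lower to 880 and 1168 after median centring. For the H4 lysine substitution it moved from 682 and 1292 to 1076 and 1040, for the RPD3 deletion from 883 and 324 to 668 and 516, and for the H3 tail deletion from 837 and 234 to 642 and 435.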
